A study of Mus musculus with 4 samples.

Results

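The genes of calcium, sodium and potassium channels and of their partner subunits were followed in maps of open chromatin from LβT2b cells. Peaks were taken as members when the gene name given to them by the authors' annotation began with Cacna1, Cacna2d, Cacnb, Cacng, Kcn, or Scn and a digit. This gave 483 and 1037 peaks in vehicle libraries 1 and 2 and 496 and 380 in activin libraries 1 and 2, which are 0.538 to 0.583% of each list. Merged over the libraries where they overlapped, the peaks made 1499 of 255101 regions and carried 137 gene names. Of the 134 protein-coding genes of the RefSeq table whose symbol fits the same rule, 2 (Cacnb1 and Kcnrg) had no peak named for them.

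The symbols reach beyond voltage-gated channels. They include the Kcnj inward rectifiers, the Kcnk tandem-pore leak channels, channels opened by calcium or sodium inside the cell (Kcnma, Kcnn, Kcnt), and the non-coding RNA Kcnq1ot1. The members are therefore called ion channel genes here. HOMER names a peak for the gene with the nearest start site, so a name states proximity and does not show which gene a distal region acts on.

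The labels call the cells LβT2b and give their cell line as LbT2; how the names relate is not stated. LβT2 is an established mouse cell line of the gonadotrope type, the pituitary cell that makes luteinising and follicle-stimulating hormone. It comes from a tumour driven by a viral oncogene, so its cells divide, unlike most gonadotropes. Wells of 350000 cells, kept overnight in medium without serum, received either vehicle or activin A at 1 nM for 6 h, and transposase was added to 50000 cells per reaction (ATAC-seq, which reads out where the enzyme can cut open DNA). Both groups had 2 libraries. The labels give no separate cultures or dates, so a p-value measures only the spread between these libraries.

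Gonadotropes fire action potentials on their own, and gonadotropin-releasing hormone sets off calcium release and electrical bursts in them. Voltage-gated calcium channels let in the calcium that drives exocytosis and calcium-dependent signalling, sodium channels shape the upstroke of the spike, and potassium channels set the resting potential and end the spike. Activin A is a TGFβ family ligand that raises transcription of Fshb, the gene whose enhancers the study was about. Each channel is built from a pore subunit and auxiliary subunits that alter its gating or its delivery to the membrane.

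Depth was 172146474 to 224226184 high-quality reads per library. Start-site enrichment was 2.72 and 2.48 under vehicle against 3.12 and 3.04 under activin, so the activin libraries had the higher signal over background at promoters in general. Its part in the differences below was not tested. Vehicle library 2 had the longest peak list (178358 peaks, against 70692 to 85112) and held 610 of the 1036 ion channel regions seen in a single library. Of 10 gonadotrope genes, 6 (60%) had a promoter peak in all 4 libraries, against 25.5% of all protein-coding genes. They included Lhb, Cga, Gnrhr, Gata2 and Egr1. Fshb had no promoter peak in any library, and the rest had one in some libraries only. Of markers of other cells, Neurod1 (1 of 7 genes for other pituitary types) and S100b (1 of 2 for folliculostellate and stem cells) had one in all 4 libraries. None of 4 blood, vessel and connective tissue genes did.

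Strength of a peak is given as the authors' −log10 q, which depends on the depth and background of its library and is used as a description. A peak was called strong at a −log10 q of at least 5. Density is the number of high-quality reads in a library's own peak per kb and per 1000000 high-quality reads of that library.

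Promoter sequences of members are shown first, because start sites that were open and those that were closed are also set side by side here by base composition. The RefSeq table of start-site windows (GRCm38.p6, the build of the peak positions) held 138 windows of 102 ion channel genes, each from 250 bases before to 50 after a start. A peak overlapped 36 of these windows in all 4 libraries (26.1%, against 35.0% of 32851 windows of all genes). The open windows had a median GC content of 67.7% and those without a peak in any library 53.0%, against 63% and 47.3% over all genes. The ratio of observed to expected CpG was 0.754 in the open windows and 0.324 in the closed ones, against 0.805 and 0.217 over all genes. The 250 bases before the start are given 5′ to 3′ on the gene's strand for 4 promoters strong in every library (Kcnk12, Kcna4, Kcnj2, Kcnh7), for 2 strong only in the activin libraries (Kcnd2 and Scn2a, called Scn2a1 in the peak files), and for the closed promoter of the retinal calcium channel Cacna1f. Capitals mark GGGCGG, the box read by Sp1, or CACGTG, the E-box, on either strand.
Kcnk12: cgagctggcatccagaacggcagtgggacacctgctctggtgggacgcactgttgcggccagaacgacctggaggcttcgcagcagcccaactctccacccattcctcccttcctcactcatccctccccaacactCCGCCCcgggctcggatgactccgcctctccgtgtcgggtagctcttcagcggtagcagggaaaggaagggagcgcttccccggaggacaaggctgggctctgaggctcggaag
Kcna4: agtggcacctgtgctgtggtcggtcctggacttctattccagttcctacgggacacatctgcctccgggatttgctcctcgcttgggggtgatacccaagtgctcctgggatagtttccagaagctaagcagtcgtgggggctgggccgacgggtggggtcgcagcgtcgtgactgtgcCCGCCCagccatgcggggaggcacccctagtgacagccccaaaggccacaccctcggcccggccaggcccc
Kcnj2: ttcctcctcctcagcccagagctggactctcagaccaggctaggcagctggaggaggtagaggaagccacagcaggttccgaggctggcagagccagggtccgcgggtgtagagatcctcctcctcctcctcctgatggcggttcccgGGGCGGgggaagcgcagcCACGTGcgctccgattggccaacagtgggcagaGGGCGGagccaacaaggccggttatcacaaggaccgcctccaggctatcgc
Kcnh7: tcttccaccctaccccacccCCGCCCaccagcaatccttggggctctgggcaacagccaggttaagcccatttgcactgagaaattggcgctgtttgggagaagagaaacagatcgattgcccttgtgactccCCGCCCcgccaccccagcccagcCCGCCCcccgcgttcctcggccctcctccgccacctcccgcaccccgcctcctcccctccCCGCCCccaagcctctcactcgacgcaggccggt
Kcnd2: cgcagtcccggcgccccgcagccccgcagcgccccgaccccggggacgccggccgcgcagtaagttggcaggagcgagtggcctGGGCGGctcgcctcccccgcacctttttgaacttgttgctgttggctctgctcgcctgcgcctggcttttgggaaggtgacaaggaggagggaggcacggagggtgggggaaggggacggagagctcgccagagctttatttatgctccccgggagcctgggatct
Scn2a: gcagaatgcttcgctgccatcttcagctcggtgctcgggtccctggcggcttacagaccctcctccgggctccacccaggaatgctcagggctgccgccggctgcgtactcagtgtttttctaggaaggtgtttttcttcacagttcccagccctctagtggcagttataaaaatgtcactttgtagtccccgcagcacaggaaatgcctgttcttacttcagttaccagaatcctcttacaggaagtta
Cacna1f: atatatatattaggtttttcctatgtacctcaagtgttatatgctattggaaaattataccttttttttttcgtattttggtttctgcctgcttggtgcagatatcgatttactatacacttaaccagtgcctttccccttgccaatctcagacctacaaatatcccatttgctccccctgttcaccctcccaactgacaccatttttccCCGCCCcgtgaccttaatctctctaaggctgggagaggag

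The printed stretches lie at chr17:87797995-87798244 (minus strand, Kcnk12), chr2:107290339-107290588 (plus strand, Kcna4), chr11:111065914-111066163 (plus strand, Kcnj2), chr2:63184288-63184537 (minus strand, Kcnh7), chr6:21215096-21215345 (plus strand, Kcnd2), chr2:65668436-65668685 (plus strand, Scn2a) and chrX:7606853-7607102 (plus strand, Cacna1f). GGGCGG stood in 75% of the open ion channel windows and in 26% of the closed ones, against 70.8% and 14.2% over all genes. It was in the closed Cacna1f stretch as well and not in that of Scn2a. CACGTG was in 5.56% of open and 4.11% of closed ion channel windows, against 10.8% and 4.80% over all genes. The AP-1 letters TGANTCA were in 5.56% (2 of 36) and 2.74% (2 of 73), against 3.63% and 10.2% over all genes. The CRE letters TGACGTCA (1.79% of all windows), the SMAD palindrome GTCTAGAC (0.213%) and the palindrome of NRF1 (0.971%) were in no ion channel window. The nuclear receptor letters CAAGGTCA were in 1 of the 138 windows (1.56% of all windows). The letters TTCAGCACC and GGACAGCGC, the left and right parts of the element bound by the neuronal gene repressor REST, were also in 1 window each (0.371% and 0.405% of all windows). Both strands were read, and no match or lack of one shows whether a factor was bound.

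Few ion channel promoters were strongly open. A peak annotated as promoter and carrying the gene's name was present in each of the 4 libraries for 32 of the 134 protein-coding genes (23.9%), against 25.5% of all protein-coding genes. It was strong in each for 10 of the 134 (7.46%), against 18.3%. They included Cacna1g, Scn3b, Kcna4, Kcnb2, Kcnc4, Kcnh7, Kcnj2, Kcnk12 and Kcnn2. The median −log10 q of ion channel promoter peaks was 3.44 and 2.95 under vehicle against 5.48 and 5.94 under activin. Promoter peaks of all genes had medians of 7.63, 4.38, 13.0 and 10.7 in the same order. Read density differed less: its median at ion channel promoters was 2.50, 2.27, 2.55 and 2.78, against 2.76, 2.15, 3.01 and 3.04 over all promoters. Both sets had higher medians in the activin libraries than in the vehicle libraries. The gene counts above ask for the promoter label in each library. Values of single promoters below are those of the merged region, labelled promoter in at least 1 library; 49 such regions of 47 genes had a peak in all 4 libraries, and 15 were strong in each.

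Open promoters were counted by channel family, without a test between families. Of 40 genes of voltage-gated potassium pores 12 had a promoter peak in every library, and of 12 ion-activated potassium channel genes 5 did. These 5 include Kcnmb1 by name only, since its peak was labelled in every library as a promoter of Kcnip1, an auxiliary subunit gene counted without one. The counts were 3 of 15 for inward rectifiers, 1 of 14 for tandem-pore channels and 2 of 12 for auxiliary potassium subunits. Calcium channels had 1 of 10 pore genes, 2 of 4 β, 2 of 8 γ and 0 of 4 α2δ genes. Sodium channels had 2 of 10 pore genes and 2 of 4 β genes. A gene without a promoter peak under its own name could still have an open start site named for a neighbour, as described at the end of the promoter results.

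**Figure D1:**
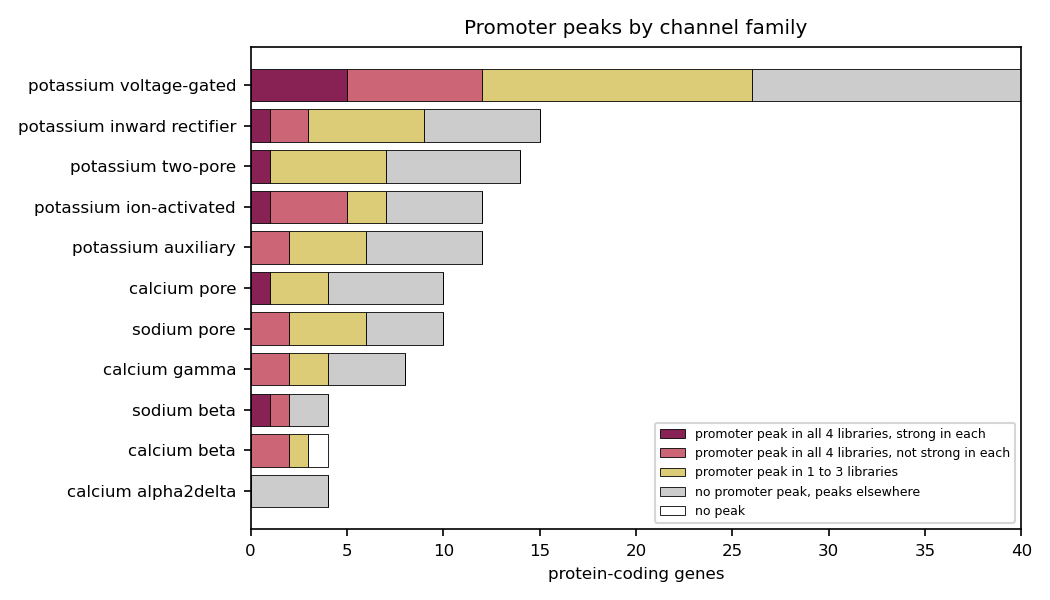
Number of protein-coding ion channel genes (horizontal axis) per family, split by whether a promoter peak named for the gene was called in all 4 libraries and strong in each, in all 4 but not strong in each, in 1 to 3, or in none. Voltage-gated potassium channels hold 5 of the 10 genes with a strong promoter in every library, and no α2δ gene has a promoter peak under its own name.

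Sodium channel promoters ranged from the strongest of all members to closed. Scn3b encodes a β subunit that modulates the sodium pore, and its promoter (chr9:40268797-40270025) had a −log10 q of 30.3 and 26.8 under vehicle against 44.6 and 38.7 under activin. Its densities were 5.83 and 5.03 under vehicle against 6.33 and 6.36 under activin, so both activin libraries were above both vehicle libraries on these scales, while the log2 change of density after centring was −0.04 ± 0.09 (SE). Among the pore genes, the Scn2a1 promoter (chr2:65668321-65668853) went from 4.11 and 3.85 to 8.27 and 14.7, with no overlap between treatments. The density there was 3.28 and 3.13 under vehicle against 2.16 and 4.55 under activin, so the activin libraries lay on either side of the vehicle ones. Scn9a, the pore of pain-sensing neurons, had a weak promoter peak in all 4 libraries, at 1.33 to 2.91. Scn1a, Scn10a and Scn11a had none. Scn4a, Scn7a and Scn8a had one in a single library. The Scn3a promoter carried no peak of its own name, although Scn3a had strong distal regions. A region labelled as a promoter of Scn3a but named for Gm13595 had a peak in the activin libraries alone (7.19 and 4.17).

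Of the pore genes of calcium channels, Cacna1g had an open promoter under its own name in all libraries. It encodes a T-type channel, which opens near the resting potential. Its promoter (chr11:94473340-94474722) reached 5.21 and 6.80 under vehicle against 17.6 and 12.6 under activin. Its densities were 4.14 and 2.75 against 5.00 and 4.62, again without overlap, but the common part of the 4 peaks was too small for the test. The region named Cacna1c with a promoter label (6.88, 4.81, 6.50 and 8.73) lay 33.1 kb from the start site used for that name and was labelled as a promoter of Ankrd26 in 3 of the libraries. Cacna1d and Cacna1s, L-type pores, had a weak promoter peak under their own names in vehicle library 2 alone. A start of Cacna1d named for Dcp1a had weak peaks in vehicle library 2 (1.48) and both activin libraries (2.72 and 1.49). The others (Cacna1a, Cacna1b, Cacna1e, Cacna1f, Cacna1h and Cacna1i) had none under their own name.

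The β subunit genes Cacnb2, Cacnb3 and Cacnb4, whose products carry calcium channel pores to the membrane, were open. The region of Cacnb2 labelled as a promoter (chr2:14874470-14876314) had a −log10 q of 9.71, 8.02, 12.6 and 12.5. Cacnb3 had its stronger promoter region 2.4 kb from the start used (8.67, 4.55, 10.8 and 10.7) and a weaker region at the start (1.92, 3.23, 4.01 and 2.61). Cacnb4 had 8.01, 3.80, 10.1 and 7.84. In the stronger region of each of these 3 genes the activin libraries were above vehicle library 2, and at Cacnb4 activin library 2 was below vehicle library 1. Among the γ genes, whose products mostly escort AMPA-type glutamate receptors, Cacng2 (5.92, 9.62, 12.6 and 7.49) and Cacng7 (7.64, 5.55, 11.4 and 10.6) were strong in each library at the level of the merged region, although some of their peaks were not labelled as promoter. Cacng5 and Cacng3 were weaker.

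Delayed rectifiers repolarise the membrane after a spike. Kcnb2, a Kv2 pore of this kind, had the strongest potassium channel promoter of those named by the rule (chr1:15286192-15287559), at 24.0 and 22.4 under vehicle against 32.3 and 25.1 under activin. The Kv3 genes Kcnc1 and Kcnc4, known from fast-spiking cells, were open. Kcnc1 had 11.6, 8.23, 13.0 and 8.19, with overlap between treatments, and Kcnc4 had 5.30, 7.74, 12.0 and 13.1, without overlap. The Kcnc4 densities did overlap, at 2.58 and 2.30 under vehicle against 2.56 and 2.93 under activin.

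Kcna4, which carries a fast-inactivating A-type current, had a promoter (chr2:107290216-107291502) at 15.3 and 14.3 under vehicle against 29.3 and 26.7 under activin. Its densities were 4.99, 3.52, 3.67 and 5.57, which overlap between treatments. The region lay 231.2 kb from the Fshb start on the same chromosome. Kcnd2, another A-type pore, had 4.21, 4.72, 7.21 and 8.51, and its density went from 1.04 and 1.14 to 1.56 and 1.86. Kcnh7, a channel of the erg family, had 12.9 and 13.8 against 24.2 and 21.2, with densities of 2.89 and 3.02 against 3.80 and 3.55. Of the Kcnq genes, Kcnq5 (1.72, 1.56, 2.28 and 1.41), a gene of the M-current, had a weak promoter peak in all 4 libraries. Kcnq1 had one in 3 libraries, and Kcnq3 had none under its name. Kcnq1ot1, the imprinted antisense RNA of the Kcnq1 locus, had a strong one (9.44, 8.19, 13.3 and 10.4).

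Among channels not gated by voltage alone, Kcnk12, a tandem-pore gene, had the highest promoter of those named by the rule (18.5, 14.6, 22.4 and 21.3). Kcnj2, the classical strong inward rectifier that stabilises the resting potential, followed (13.9, 13.4, 21.8 and 14.9). Kcnj11, the pore of the ATP-sensitive channel, had a promoter peak in the activin libraries alone (5.08 and 2.36). Kcnn2, a small-conductance calcium-activated channel of the after-hyperpolarisation, had 11.6 and 6.37 under vehicle against 16.4 and 15.2 under activin. Kcnma1, the large-conductance calcium- and voltage-activated pore, had 6.48 and 2.96 against 10.1 and 10.8. Kcnn1 was weak (1.49, 2.03, 2.79 and 2.36), Kcnn4 had a promoter peak in 1 library, and Kcnn3 had none under its name. A Kcnn3 start named for Pmvk was open in every library, at 4.65 and 4.84 under vehicle against 14.6 and 9.30 under activin. A promoter region named for Kcnmb1 lay 119.4 kb from that gene's start and was labelled as a promoter of Kcnip1. In the gene counts above it stands under Kcnmb1.

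**Figure D2:**
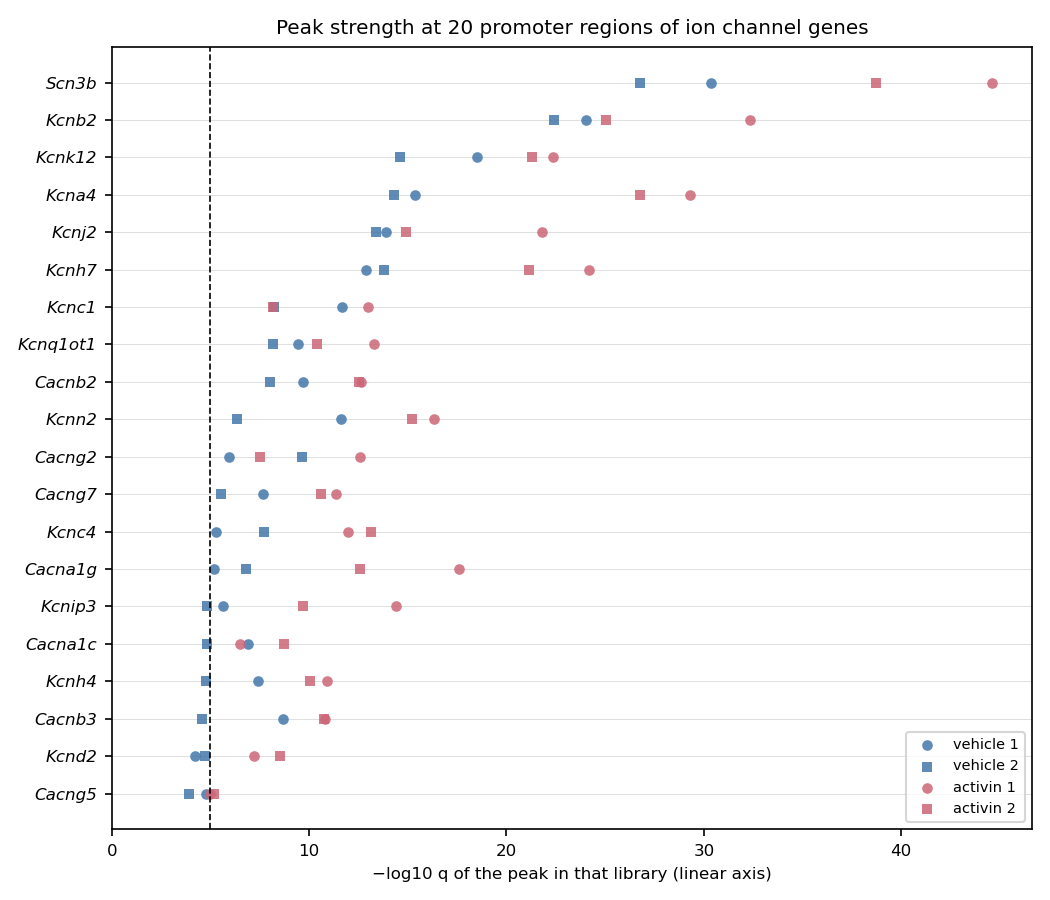
The −log10 q (horizontal axis, linear) in each library at 20 of the ion channel promoter regions with the highest values in their weakest library; circles and squares are replicates 1 and 2, blue is vehicle and red is activin, and the dashed line marks 5. Scn3b lies highest at 26.8 to 44.6, and Kcnc1 is among the genes whose treatments overlap.

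Start sites of several channel genes were open under another gene's name and so lay outside the rule. These regions were looked up after the annotation had been examined, by the gene identifier in the promoter label or by a RefSeq start window. There were 33 of them for 26 channel genes, 18 of them with a peak in all 4 libraries (17 genes) and 10 strong in each (9 genes). The highest was at the start of Kcnj6, a G protein-activated inward rectifier, named for Gm7976 (chr16:94996780-94998033, with 18.9, 23.6, 36.9 and 24.1). The Kcnab2 start, a potassium β subunit, was named for Nphp4 (17.0, 20.1, 30.2 and 20.2). Kcnh1, of the ether-à-go-go family, was named for Gm10516 (14.9, 13.5, 23.6 and 23.5). A region labelled as a promoter of Kcnh2, the erg channel, was named for Nos3 (6.53 and 5.67 with vehicle, 16.0 and 12.3 with activin). The Kcnh2 window of the RefSeq table lay elsewhere and had no peak in any library.

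High-voltage-activated calcium channels were open at such sites. The start of Cacna1b, the N-type pore, had 11.8 and 9.53 under vehicle against 20.8 and 16.8 under activin, under the name Gm13459. That of Cacna1c, an L-type pore, had 7.16, 5.81, 9.38 and 10.6 under the name Dcp1b. The T-type gene Cacna1h had 8.23, 6.37, 11.0 and 11.3 under the name Tekt4. For Cacna2d1, an α2δ subunit that raises channel number at the membrane, the values were 8.52, 9.12, 21.3 and 11.5 under the name Gm3510. Cacnb2 had 2 further strong starts, the higher at 16.0, 11.8, 25.6 and 20.0. Cacnb1, without a peak of its own name, had 2.62, 2.47, 5.45 and 3.40 under the name Gm11629. Scn8a had a start at 3.80, 4.52, 9.81 and 7.82, named for Slc4a8. Counted by RefSeq windows alone, 33 of 102 ion channel genes had an open start in all 4 libraries, against 37.1% of all genes in that table. Of these, 16 were also open by the annotated name and 17 were not.

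Distal regions were the majority of regions with a peak in every library, for ion channel genes as over all genes. Of the 163 such ion channel regions, 49 were labelled promoter in at least 1 library (30.1%, against 33.7% of all 29896). Introns held 66 of the 163 (40.5%, against 27.4%), and 37 lay between genes (22.7%, against 31.1%). Exons held 8 (4.91%, against 5.11%) and gene ends 3 (1.84%, against 2.71%). The 114 regions outside promoters carried the names of 59 genes. They lay a median of 29.6 kb from the start used, against 19.1 kb for all 19827 distal regions found in every library. Of the 114, 15 were strong in all libraries, against 3711 of the 19827. Among the 114, Kcnma1 had the most (8), before Kcnj15 (6) and Kcnh1 and Kcnk9 (5 each).

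The strongest distal region was intergenic, 19.8 kb from the start of Kcnn4, an intermediate-conductance calcium-activated channel (chr7:24389593-24390589). It had a −log10 q of 20.1 and 18.0 under vehicle against 31.7 and 25.6 under activin, whereas its densities overlapped (6.40, 5.20, 6.64 and 5.47). Scn8a, the pore of the axon initial segment, had a region at exon 12 of 27 (chr15:100983581-100984341) with 13.0, 13.4, 21.7 and 20.4. A region 4.4 kb before Kcnc1 had the highest densities of the named distal regions (8.18, 6.86, 9.73 and 9.44). Scn3a had a region in intron 21 of 26 (15.1, 12.5, 31.3 and 18.8) and another 44.6 kb from its start (15.4, 11.5, 29.2 and 21.8). At each of these 5 regions both activin libraries were above both vehicle libraries in −log10 q, as at 75.6% of all regions strong in every library.

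Weaker but still strong in every library were intergenic regions near Kcns2 (10.0, 8.51, 19.0 and 12.7), Kcnj15 (7.78, 14.3, 19.8 and 13.7) and Kcnv2 (7.0, 9.73, 20.9 and 18.5). Kcns2 and Kcnv2 encode silent subunits that modify Kv2 pores. Kcnip3, a calcium sensor that binds Kv4 pores and is also known as a transcriptional repressor, had a region in intron 1 of 8 (6.40, 7.38, 9.67 and 8.43). At Kcnma1 a region in intron 1 of 28 had 8.20, 9.61, 11.6 and 10.1. A further region 32.4 kb before the Kcnma1 start had 7.20 and 6.21 under vehicle against 16.7 and 14.2 under activin.

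**Figure D3:**
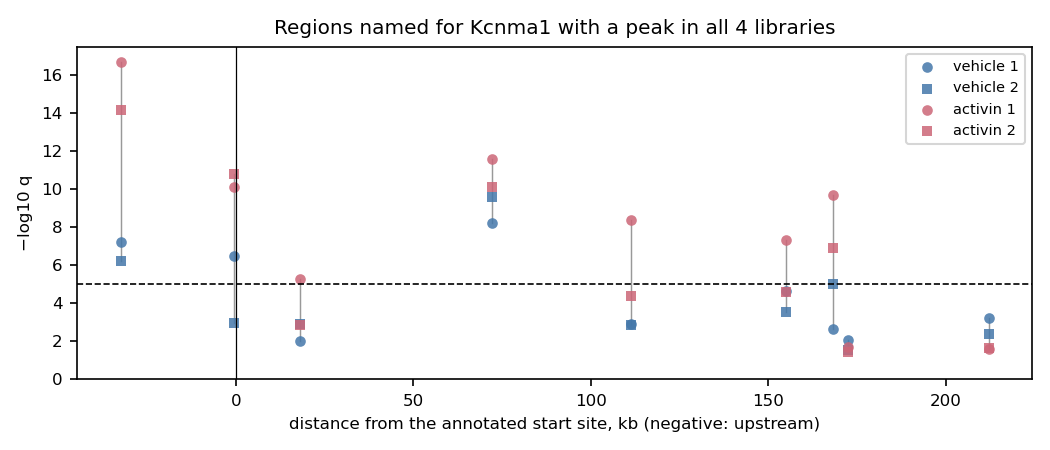
The −log10 q (vertical axis) of the 9 regions named for Kcnma1 with a peak in every library, against distance in kb from the annotated start; markers are the libraries, a grey line spans them, and the dashed line marks 5. The upstream region at 32.4 kb shows the widest gap between treatments, while the region at 212.0 kb has both activin libraries below both vehicle libraries.

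Some called regions held almost no high-quality reads. Density was under 0.2 in every library at 6 of 162 autosomal ion channel regions found in all 4 (3.70%), against 7.53% of all such regions. In intron 2 of 14 of Kcnab1 the −log10 q was 4.32, 5.51, 6.16 and 4.73, but the peaks held 6, 2, 2 and 0 high-quality reads. The quality report leaves out reads of low mapping quality and duplicates, and whether these made the peaks was not tested.

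The comparison of activin with vehicle was made on the read density of shared regions, which are autosomal regions with exactly 1 peak per library and a common part of at least 50% of their union. Log2 densities were first set relative to the median of their library, and limma was then run over all 13871 shared regions. No ion channel region passed: 0 of 61 were called at an adjusted p under 0.05, against 0% of all shared regions in either direction. The smallest adjusted p of a member was 0.405 with limma. Before adjustment, 1 ion channel region was higher and 4 were lower with activin at a p under 0.05, against 3.62% higher and 5.91% lower over all regions. The other members were not tested. Their peaks were not called in each library, were split within a library, overlapped too little or lay on a sex chromosome.

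The median log2 change of the 61 regions was −0.12, against −0.00 for all shared regions. It was −0.09 for 27 promoters (all promoters 0.03) and −0.13 for 34 distal regions (all distal −0.05). Centred densities of both activin libraries were above both vehicle libraries at 6 of the 61 (9.84%, against 20.9% of all regions) and below both at 19 (31.1%, against 20.5%). Scaled to all high-quality reads instead, the median over all regions was 0.27 and that of the members 0.15, so the sign of the members' median depended on the scaling. It was below the median of all regions under both. The median centred log2 density of the members was −0.11 and −0.07 under vehicle against −0.10 and −0.19 under activin, so activin library 1 lay between the vehicle libraries.

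**Figure D4:**
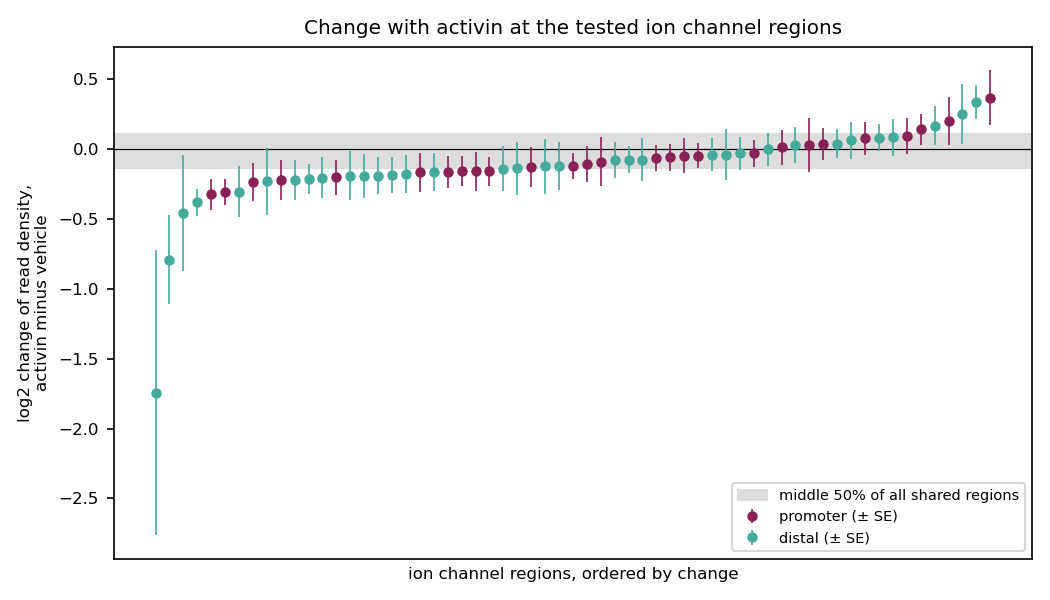
Log2 change of read density, activin minus vehicle (vertical axis), at the 61 tested ion channel regions in ascending order; points are limma estimates with their standard errors, and the grey band holds the middle 50% of all 13871 shared regions. Most points lie in or just under the band, and the lowest is the Kcnab1 region with 0 to 6 reads per library.

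The 5 regions with the smallest p among those higher with activin did not pass. The region 32.4 kb before Kcnma1 (chr14:24035314-24037479) had densities of 2.25 and 2.15 under vehicle against 3.21 and 3.51 under activin. Its log2 change was 0.34 ± 0.12 (SE; limma adjusted p = 0.473). Scaled to all high-quality reads it was 0.61 with an adjusted p of 0.0329, which made it the only member called under any setting that was run, and without division by peak length it was −0.04. The Kcnd2 promoter changed by 0.37 ± 0.20 and the Kcng3 promoter by 0.14 ± 0.11 (−0.26 without division by length). Kcng3 encodes a silent partner of Kv2 pores. Kcnn2 had 0.17 ± 0.14 in intron 3 of 4 and 0.20 ± 0.17 at the promoter, the second of which was −0.05 without vehicle library 2. The adjusted p of these 4 ran from 0.578 to 0.717.

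The lowest p among members that were lower with activin was at the Kcnip3 intron, at −0.38 ± 0.10 (limma adjusted p = 0.405). Its densities were 4.77 and 4.56 under vehicle against 4.60 and 4.09 under activin, which overlap before centring. The Kcnc1 promoter had −0.31 ± 0.09 and the Kcnn4 intergenic region −0.21 ± 0.11. Without division by length these were 0.05 and 0.08, and the Kcnn4 value was 0.06 when scaled to all high-quality reads. A promoter region of Kcnt1, the sodium-activated potassium channel, 13.9 kb from the start used had −0.32 ± 0.11. An intergenic region 118.1 kb from Kcnj6 had −0.79 ± 0.32 at low densities of 0.509 and 0.513 under vehicle against 0.310 and 0.406 under activin. None of the 12 tested regions at start sites outside the rule was called by limma, 0 had an unadjusted p under 0.05, and their median change was −0.01. Cacna2d1 had the largest of those named (0.28 ± 0.13, adjusted p = 0.534).

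By the order of −log10 q, activin libraries were mostly the higher ones, at ion channel regions and over the genome. Both activin libraries were above both vehicle libraries at 85 of the 163 regions found in every library (52.1%, against 56.8% of all regions) and below both at 7 (4.29%, against 5.44%). At promoters the count was 32 of 49 (65.3%), against 73.1% of all promoter regions. Among regions strong in every library it was 26 of 30 (86.7%), against 75.6% of all such regions.

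Of 104 ion channel regions strong in at least 1 library, 17 were strong in both activin libraries and in no vehicle library (16.3%, against 12% of all regions). None was strong in both vehicle libraries alone (0 of 104, against 0.382%). Strong in all 4 were 30 (28.8%, against 49%). For pairs of 1 vehicle and 1 activin library the same count was 0 to 3 for ion channel regions. Over all regions such pairs had 21 to 379, against 2536 for the activin pair, so the contrast was there genome-wide. The 17 became 32 with vehicle library 1 left out and 39 with activin library 2 left out. The 17 comprised 6 promoters, 5 intergenic, 4 intronic and 2 exonic regions. All 17 had a weaker vehicle peak: 15 had it in both vehicle libraries and 2 in vehicle library 2 alone.

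By the lower activin value, the first was an intergenic region 57.0 kb from Scn3a, at 4.91 and 3.24 under vehicle against 12.1 and 10.2 under activin. Its densities were 2.85, 1.72, 2.21 and 1.93 and overlapped. The promoters of Scn2a1 and Kcnd2, given above, belonged to this set. That of Kcnj3, a G protein-activated inward rectifier, did too (3.81 and 4.57 against 6.90 and 7.60). At Kcnj15 a region 97.5 kb from the start had 3.91, 4.46, 7.95 and 9.01. In intron 3 of 3 of Kcnj6 no peak was called in vehicle library 1, and the others had 4.21, 7.33 and 7.85. Intron 4 of 7 of Cacna2d1 had 2.92, 4.49, 6.64 and 7.55. Exon 1 of 3 of Kcnk1, a tandem-pore channel, had 3.13, 3.38, 11.9 and 6.28, with densities of 1.25 and 1.49 against 2.42 and 1.61. An intergenic region 83.4 kb before Kcnj16 had 2.49, 3.60, 6.49 and 6.33, although its density was lower with activin (0.455 and 0.410 against 0.140 and 0.0384). Its peaks held few high-quality reads, 53 and 42 under vehicle against 11 and 2 under activin.

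**Figure D5:**
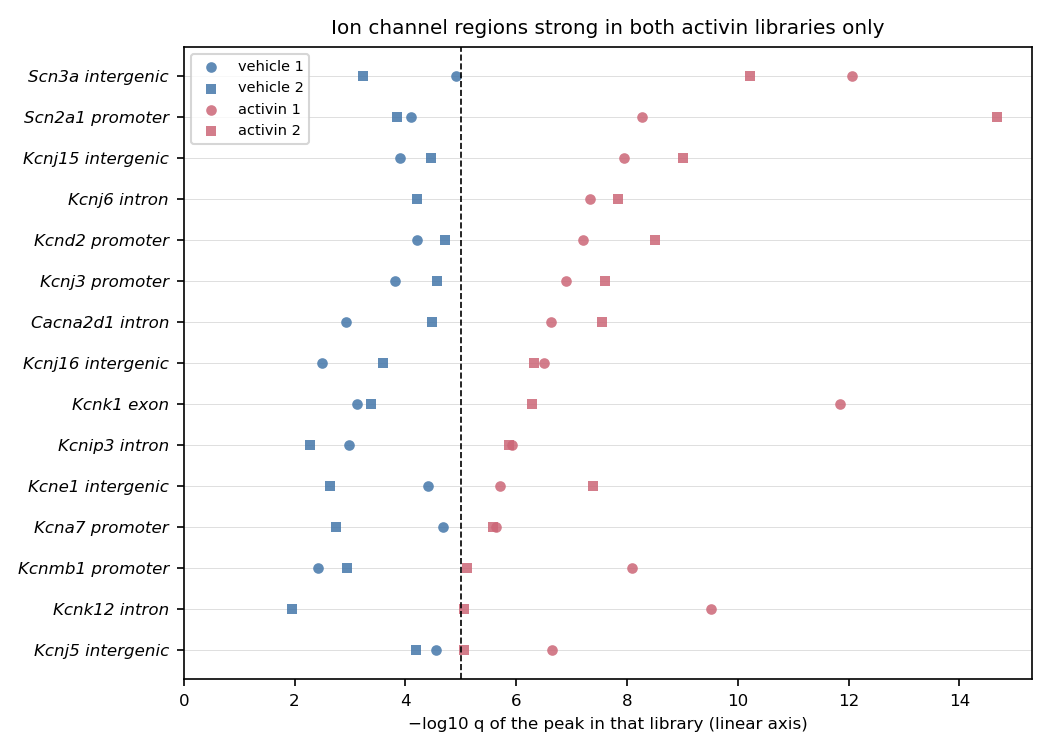
The −log10 q (horizontal axis, linear) in each library at 15 of the 17 ion channel regions that were strong, at 5 or more (dashed line), in both activin libraries and in no vehicle library. Vehicle peaks are present in nearly every line but weaker, and the Kcnj6 and Kcnk12 introns lack one in vehicle library 1.

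The number of ion channel peaks per library did not separate the treatments. Vehicle had 760 ± 392 and activin 438 ± 82.0 (SD, n = 2; exact permutation p = 0.667, 2-sided, where 0.333 is the smallest this design allows). Strong peaks numbered 47 and 44 under vehicle against 92 and 70 under activin (45.5 ± 2.12 against 81.0 ± 15.6, n = 2, exact permutation p = 0.333). Strong peaks were 9.73, 4.24, 18.5 and 18.4% of the ion channel peaks, against 14.9, 7.15, 23.3 and 22.4% of all peaks, so the share was lower for ion channels in each library and higher with activin in both sets.

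Other genes of excitability and calcium handling, such as store-operated calcium entry, calcium pumps and the Hcn pacemaker channels, were counted in the same way. Of 63 such genes 17 (27.0%) had a promoter peak in all 4 libraries, against 25.5% of all protein-coding genes. Of the 17, 15 were strong in each, against 10 of 32 ion channel genes and 3997 of 5574 protein-coding genes. The 15 included Stim1 (18.2, 13.4, 31.0 and 20.8) and Orai1 (15.8, 14.3, 27.4 and 22.1), the sensor and pore of store-operated entry. Atp2b1, a plasma membrane calcium pump, was also among them (19.3, 14.5, 26.9 and 25.4). None of 34 tested regions of these genes was called by limma. Before adjustment, 2 were lower and 0 higher at a p under 0.05.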

How the data were processed

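The authors deposited 3 files for each of the 4 libraries. Broad peaks were called on each library alone, and Bowtie2, MACS2 and HOMER with builds GRCm38 and mm10 are listed in the submitters' processing notes without settings. In the deposited peak lists each peak has a whole-number score (10 times the −log10 q), a fold enrichment as a ratio, and the −log10 of its p- and q-values. Peak annotation is HOMER's, per the file headers, with the same score deposited beside each peak. High-quality autosomal reads per peak come from ataqv 1.3.1, per the file headers; sex chromosomes have none.

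From these, peaks overlapping by at least 1 bp were merged, and log2((reads + 1) per kb) at shared regions was tested with limma 3.58.1 (R 4.3.3, trend, no block), Benjamini-Hochberg adjusted over all 13871 regions. A fold on that scale understates changes of low regions. On simulated data for activin against vehicle, 182 of 200 regions changed by 1 (log2) were recovered among 13871, and 20 unchanged ones were called with them. Smaller changes were not simulated, and the largest rise of a tested member was 0.37, so recovery at that size is not known. Alternatives covered the pseudocount, scaling, length, overlap, read filters, thresholds and left-out libraries.

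The members and gene lists were chosen with earlier results of these data known. Regions named are the 10 strongest promoters and distal regions, the 5 with the smallest p per direction, up to 10 strong in 1 treatment only, and a list of excitability genes; others were named after their values were seen. RefSeq (GRCm38.p6) gave symbols for 136 of 137 names, and the printed sequences. Scn3b, Kcnb2 and Cacna1g have no entry in its promoter table. Some members counted here are not reported by name.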

Additional observations from a re-analysis of the deposited data

How the results depend on the processing

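With 2 libraries a group, no exact test of a single value can pass 0.05, and −log10 q follows depth and background. The number of ion channel genes with an open promoter (32) fell to 10 for peaks of −log10 q of at least 5 and was 33 to 36 with 1 library left out. The count of changed regions (0) was 1 when scaled to all high-quality reads, which called 605 of all regions, and 0 otherwise, including the fit with the replicate number as a block (0). The labels do not say what libraries of the same replicate number share. Their deviations from the group means had a correlation of −0.0252 over regions. Centring had already removed library-wide shifts, so this value cannot tell whether the libraries were paired. The block called 4 of all regions. The median log2 change (−0.12) was 0.15 when scaled to all high-quality reads, −0.0664 without a minimum on the common part, and −0.102 to −0.0563 with 1 library left out. The 17 strong regions restricted to activin became 0 when no peak at all was allowed with vehicle, and 21 to 39 with 1 library left out; those restricted to vehicle were 0 to 6. The difference in peaks per library (−322) became 35.5 at −log10 q of at least 5, and −599 to −45 with 1 library left out. Signs turned at Kcnn4 when scaled to all reads (0.0616), without division by length at Kcnma1 (−0.0354), Kcng3 (−0.256), Kcnc1 (0.0483) and Kcnn4 (0.0774), and at the Kcnn2 promoter without vehicle library 2 (−0.0468, in a range of −0.0468 to 0.456 with 1 library left out). Except where stated, the cause was not tested.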
